A study of Mus musculus with 3 samples.

Results

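RNA of granulocytic myeloid-derived suppressor cells (G-MDSCs) in peripheral blood was compared between C57BL/6J mice that had borne a B16F10 tumor for 3 weeks (3Ws) and normal mice. Protein-coding genes on autosomes were kept when the level reached 5 FPKM in at least 1 of the 2 libraries. FPKM counts the fragments of a gene relative to its exon length and to the size of the library. The rule kept 5392 genes, 20.2% of the 26655 in the deposited values. The series holds 3 libraries, and the other, from mice bearing tumors for 2 weeks (2Ws), is given beside the others for its levels alone.

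B16F10 is a mouse melanoma line of C57BL/6 origin that was implanted subcutaneously. Every library was made from CD11b+Gr1+ blood cells of C57BL/6J mice, enriched magnetically with an isolation kit for myeloid-derived suppressor cells. The labels name no genetic alteration or drug for the normal or the 3Ws group. The labels give the tumor time in weeks in the description and with the same numbers in months in another field, and the study's methods speak of weeks. The sources used here do not give how many mice were bled for a library. Since each condition has 1 library, differences below stand without replicates or p-values.

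G-MDSCs are neutrophil-lineage cells that accumulate in tumor-bearing hosts and can restrain T cells through arginase, nitric oxide and other products. Neutrophils mature in bone marrow through stages that load their granules in sequence, primary granules before secondary and tertiary ones, and G-CSF signaling through STAT3 drives their production and release. Blood neutrophils also respond to interferon, to IL-1 family cytokines and to glucocorticoids, each of which has well-known target genes. A magnetically enriched preparation can carry other blood cells, so genes of neutrophils are described apart from those of other blood cells.

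Depth was alike in the compared libraries, 17325747 fragments for the normal library and 17075753 for 3Ws, as recovered from the steps of the FPKM values. Defining neutrophil genes were present in each library. Ly6g, the antigen of the Gr1 antibody on granulocytes, was at 125, 114 and 190 FPKM in the normal, 2Ws and 3Ws libraries. S100a8 and S100a9 together made up 10.5% of all FPKM in the normal library, 12.1% at 2Ws and 16.2% at 3Ws. Y-linked Ddx3y was at 19.9 FPKM in the normal library and 23.1 FPKM at 3Ws and was listed at 0 at 2Ws, where Xist was at 24.7 FPKM. The study's methods name female mice for tumor implantation. Genes on the sex chromosomes were outside the rule, and what else differs between the mice of the 2Ws library and the others was not tested.

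Most genes differed little. For each gene, log2 of (FPKM + 1) at 3Ws over the normal library was taken and centred on the median over 9210 genes that reached 1 FPKM in both. That median was -0.18, which corresponds to a 1.13-fold lower value at 3Ws before centring. After centring, 4191 of 5392 genes (77.7%) lay within 1.5-fold of the normal level, and the 5th and 95th percentiles were -1.05 and 0.80. At least 2-fold higher at 3Ws were 166 genes (3.08%), and at least 2-fold lower were 294 (5.45%). These shares are the background for every list below. Past 4-fold, 30 genes were higher and 20 lower.

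**Figure D1:**
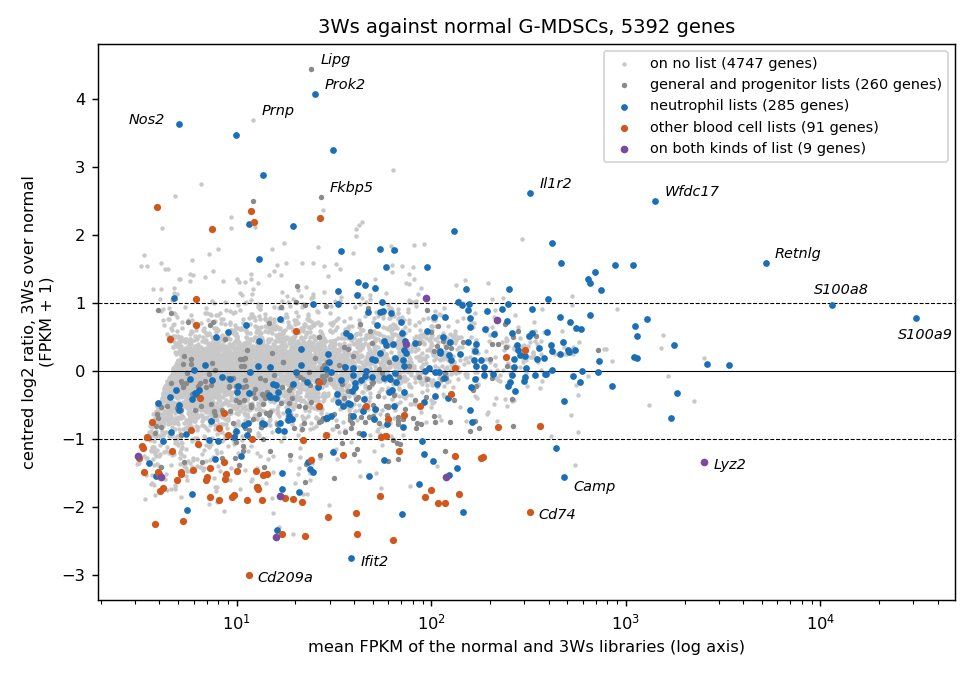
Each point is a gene, placed by its mean FPKM (log axis) and by its centred log2 ratio of 3Ws over normal, with dashed lines at 2-fold. Neutrophil-list genes (blue) lie on either side of 0 and reach the highest levels, while most genes of other blood cells (orange) lie below -1.

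The split of higher and lower genes depended on level. Among the 4523 genes at 5 FPKM or more in both libraries, 122 were 2-fold or more higher and 115 lower. A further 755 genes reached 5 FPKM only in the normal library, of which 179 were at least 2-fold lower, and 114 reached it only at 3Ws, of which 44 were at least 2-fold higher. Genes kept through their higher library alone lean to that direction by the rule itself. Without centring, 117 genes were higher and 411 lower, 22.2% of the differing genes being higher against 36.1% with centring. Just inside the 5 FPKM rule lay Bub3, at 5.001 FPKM in the normal library and 3.79 FPKM at 3Ws, and just outside it lay Pgap2, at 4.996 and 4.25 FPKM.

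Ratios also moved with exon length and level. The median was -0.18 in the shortest of 5 equal bins of summed exon length and 0.19 in the longest, and the share at least 2-fold lower was 10.8% and 2.22%. By mean FPKM, the median was -0.12 below 10 FPKM and 0.28 at 300 FPKM or more. The part of fragment size and RNA integrity in these trends was not tested.

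**Figure D2:**
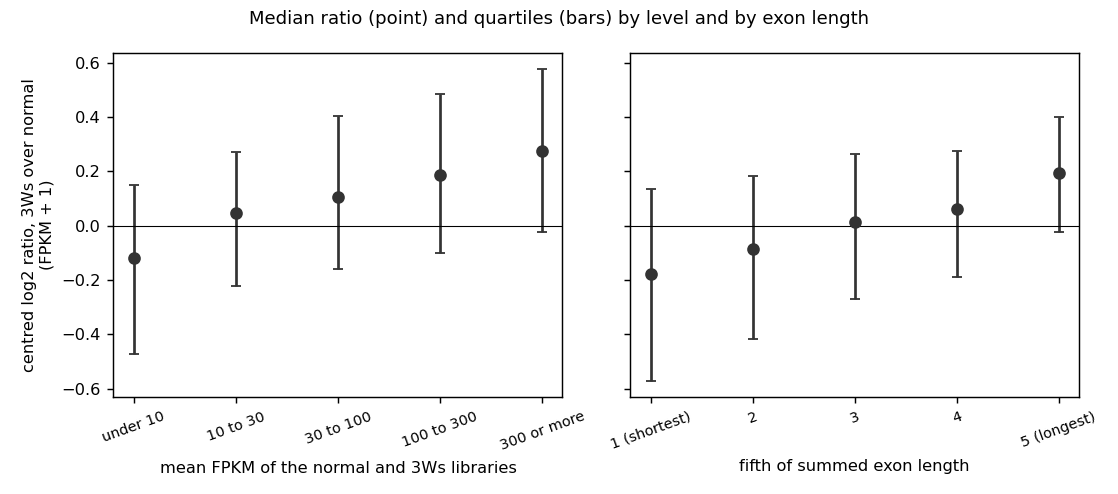
Points are median centred log2 ratios of 3Ws over normal and bars run from the lower to the upper quartile, for 5 ranges of mean FPKM (left) and 5 equal bins of summed exon length (right). The medians climb from -0.12 to 0.28 with level and from -0.18 to 0.19 with length.

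Genes were grouped into 40 lists. Of 285 genes on neutrophil lists and on no list of other blood cells, 36 (12.6%) were at least 2-fold higher at 3Ws and 30 (10.5%) at least 2-fold lower, with a median ratio of 0.01 against 0.02 over all genes kept. Leaving out the interferon-stimulated genes, 34 of 220 were higher and 11 lower, with a median of 0.19. Of 91 genes on lists of other blood cells alone, 6 (6.59%) were higher and 60 (65.9%) lower, with a median of -1.42. The 4747 genes on no list had 116 higher and 173 lower and a median of 0.03.

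**Figure D3:**
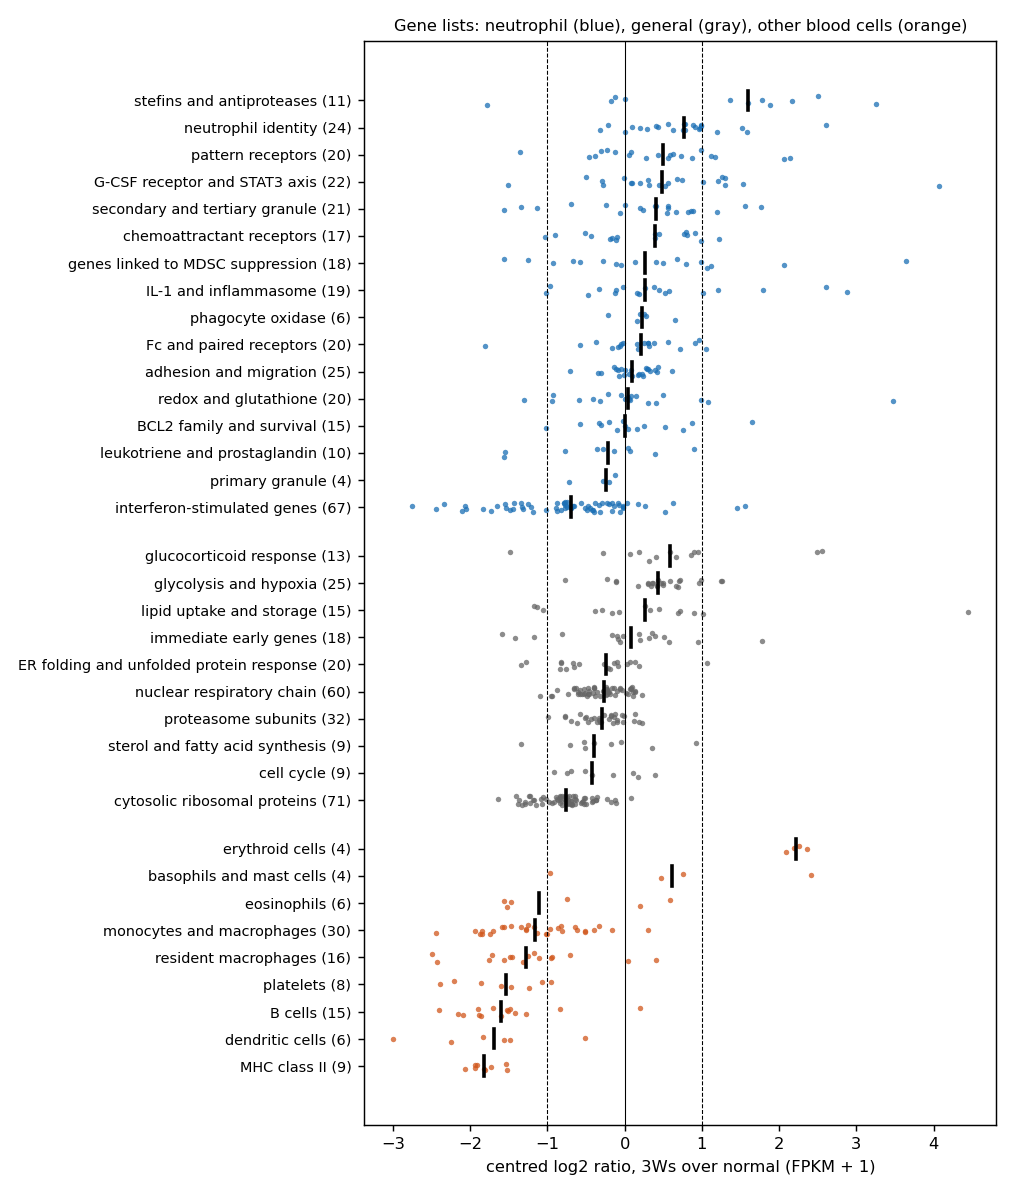
Each point is the centred log2 ratio of a gene, each black bar the median of its list, and the number of genes is in brackets; points are spread vertically for legibility. Stefins and antiproteases stand highest among the neutrophil lists with a median of 1.59 (0.01 over genes with whole reads alone), interferon-stimulated genes lowest with -0.70, and MHC class II genes lowest of all with -1.83.

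The 24 genes of the neutrophil identity list were mostly higher at 3Ws. The median ratio was 0.77, 22 genes were above 0, 4 were at least 2-fold higher and none was at least 2-fold lower. S100a9, a calcium-binding alarmin subunit and the most abundant gene kept, was at 24594 FPKM in the normal library, 27455 FPKM at 2Ws and 37319 FPKM at 3Ws. Its partner S100a8 was at 8385, 10195 and 14548 FPKM, a ratio of 0.98, just under the 2-fold line. Retnlg, a resistin-like protein of granulocytes, was at 2863, 4188 and 7606 FPKM. Levels of these 3 abundant genes thus stood in the order normal, 2Ws, 3Ws.

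Il1r2, which encodes the decoy receptor that binds IL-1 without signaling, had the largest ratio of the list, 2.61. Its level was 99.9 FPKM in the normal library, 81.8 FPKM at 2Ws and 543 FPKM at 3Ws, so that 3Ws alone stood high. From recovered reads the centred fold was 6.17, with a 95% Clopper-Pearson interval of 5.95 to 6.41 that covers counting error only, like each interval below. Acod1, which makes itaconate, was at 32.8, 35.0 and 84.7 FPKM. Csf3r, the G-CSF receptor, was at 3479, 3362 and 3271 FPKM, a ratio of 0.09, and Slfn4, an interferon-inducible schlafen, had the lowest ratio of the list, -0.32.

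Stefins and antiproteases, with whey-acidic-protein genes among them, had 7 of 11 genes at least 2-fold higher and a median ratio of 1.59. Among the 7 genes with whole reads in both libraries, 3 were at least 2-fold higher, 1 was lower and the median was 0.01. Stefins are cytosolic inhibitors of cysteine cathepsins. Stfa2 was at 5.87, 16.3 and 56.6 FPKM in the normal, 2Ws and 3Ws libraries, a ratio of 3.25, and Stfa2l1 was at 390, 611 and 882 FPKM. The stefin genes are near-identical copies on chromosome 16, between which the counting could split reads, so their single values are uncertain. Wfdc17, a whey-acidic-protein domain gene of myeloid cells, was at 472 FPKM in the normal library, 708 FPKM at 2Ws and 2362 FPKM at 3Ws, and its neighbors on chromosome 11, Wfdc18 and Wfdc21, had ratios of 1.80 and 1.59. Serpinb2, an inhibitor of plasminogen activators, went the other way with a ratio of -1.78.

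Granule genes were divided. Of 21 secondary and tertiary granule genes, 3 passed 2-fold upward and 3 downward. Higher were Olfm4, a granule glycoprotein of a neutrophil subset, at 16.8, 37.7 and 52.2 FPKM; the collagenase Mmp8, at 484, 501 and 1264 FPKM; and the siderophore-binding Lcn2, at 492, 524 and 997 FPKM. Lower were Camp, the cathelicidin precursor, at 743, 325 and 222 FPKM, and lactoferrin, Ltf, at 626, 314 and 250 FPKM. The level of both was already lower at 2Ws than in the normal library.

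Lyz2, lysozyme of neutrophils and macrophages, was the third lower gene of that list, at 3742, 3787 and 1301 FPKM, and it is on the monocyte and macrophage list too. Cebpe, the transcription factor that drives secondary granule genes, was at 26.6, 16.3 and 7.57 FPKM, a ratio of -1.51. Ngp, another secondary granule gene, had a ratio of -0.70 and the gelatinase Mmp9 one of 0.20. Of 10 primary granule genes in the files, 4 were kept, with a median of -0.24. The protease inhibitor Serpinb1a was at 37.9 FPKM in the normal library and 30.3 FPKM at 3Ws, whereas myeloperoxidase, Mpo, was at 0.438 FPKM in the normal library and 0.0855 FPKM at 3Ws.

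Among 22 genes of the G-CSF receptor and STAT3 axis, 7 were at least 2-fold higher, 1 was at least 2-fold lower (Cebpe) and the median was 0.48. Prok2, a chemokine-like peptide that G-CSF induces in mouse myeloid cells, was at 2.32 FPKM in the normal library, 7.44 FPKM at 2Ws and 48.2 FPKM at 3Ws. Its centred fold from reads was 23.6, with an interval of 18.8 to 30.05. Socs3, the feedback inhibitor of this pathway, was at 166, 136 and 338 FPKM, and Lrg1, a secreted granulocyte glycoprotein, at 411, 402 and 896 FPKM. Il4ra, Osm, Csf2rb2 and Pim1 had ratios between 1.02 and 1.53. The ratio of Stat3 itself was 0.56.

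Genes linked to suppression by MDSCs did not move together, with 4 of 18 at least 2-fold higher and 2 lower. Nos2, inducible nitric oxide synthase, had 1 read in the normal library, 39 at 2Ws and 763 at 3Ws, which is 0.0131, 0.534 and 10.1 FPKM. With 1 read, the centred fold of 878 has an interval of 157 to 34729. Arg1, arginase, was at 9.12, 3.47 and 13.2 FPKM, a ratio of 0.68 that stayed under 2-fold. Tgfb1 was at 39.3, 38.1 and 21.4 FPKM with a ratio of -0.66, and Irf4, a transcription factor on the dendritic cell list as well, was at 6.83, 7.44 and 1.34 FPKM with a ratio of -1.56.

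Receptors for bacterial products and chemoattractants included several higher genes. Tlr1, which pairs with TLR2 to sense lipopeptides, was at 7.40, 11.1 and 31.6 FPKM, and the lipopolysaccharide co-receptor Cd14 at 55.6, 69.3 and 207 FPKM. Tlr4 and the lectin Clec4n had ratios of 1.17 and 1.12, and Tlr9, the sensor of unmethylated DNA, had -1.36, which left 4 of 20 pattern receptors higher and 1 lower. Of 17 chemoattractant receptors, Cxcr1 alone was at least 2-fold higher, at 33.1, 20.99 and 69.0 FPKM, and Cmklr1 alone at least 2-fold lower. Cxcr2, the main chemokine receptor of mature neutrophils, was at 1027, 1031 and 1540 FPKM with a ratio of 0.77, whereas Cd101, a surface marker of mature neutrophils, had a ratio of -0.57.

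Within the IL-1 and inflammasome list, 5 of 19 genes were at least 2-fold higher. Besides Il1r2, these were the chemokine Cxcl2, a ligand of CXCR2, at 2.90, 5.73 and 24.3 FPKM; Il1rap, the shared accessory chain of IL-1 family receptors, at 26.4, 27.0 and 82.9 FPKM; Il18rap; and Casp4, the mouse caspase-11 gene. The abundant cytokine Il1b was at 1635, 1947 and 1885 FPKM with a ratio of 0.39. Ccl3 was lower, with a ratio of -1.01. Bcl2l1, which encodes the survival protein BCL-XL, was at 6.43, 6.01 and 19.5 FPKM. The list of BCL2 family and survival genes had no common direction, with a median of 0.01 over 15 genes. Bcl2l1 was its 1 gene at least 2-fold higher, and Bax, which promotes cell death, its 1 gene at least 2-fold lower, at 6.19, 5.06 and 2.12 FPKM.

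Adhesion and migration genes and the phagocyte oxidase had no gene past 2-fold in either direction among 25 and 6 kept, with medians of 0.10 and 0.22. Actb was at 2694, 2519 and 2538 FPKM. Each of these autosomal genes stayed within 2-fold of the normal level. Cybb, the X-linked oxidase subunit outside the rule, was lower with a ratio of -1.01.

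**Figure D4:**
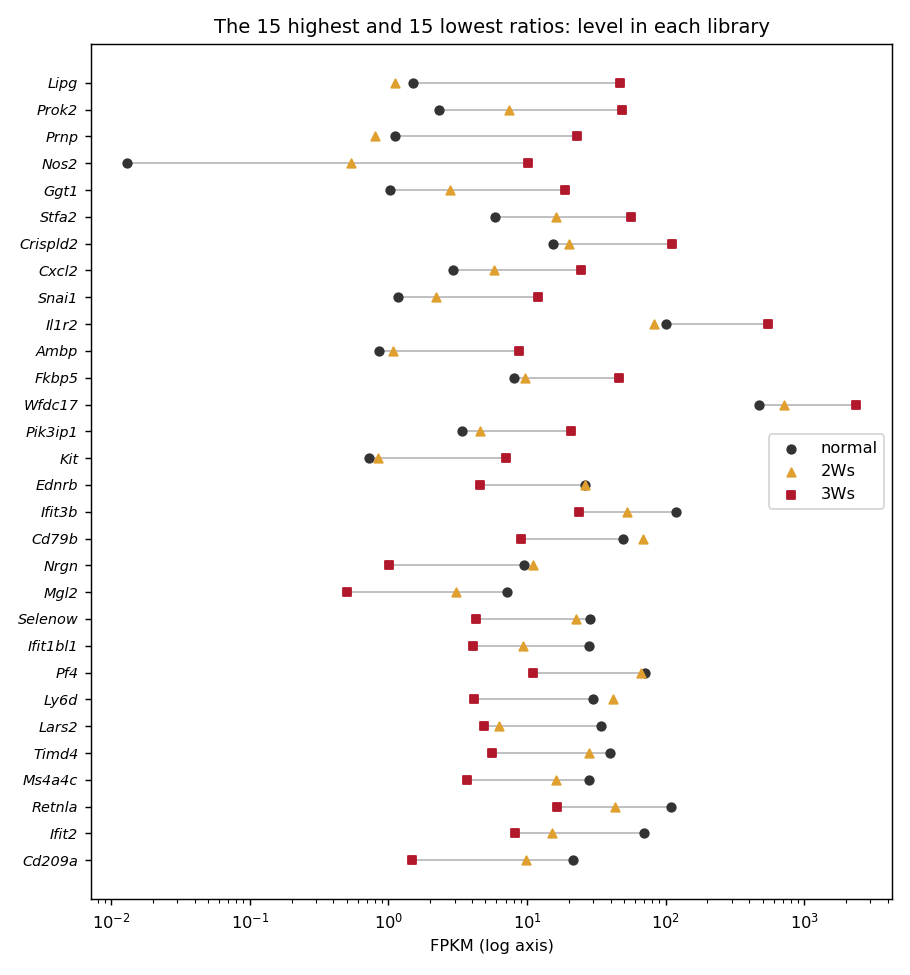
FPKM (log axis) in the normal (circle), 2Ws (triangle) and 3Ws (square) libraries for the 15 highest and 15 lowest centred ratios, ordered from highest to lowest ratio; a gray line joins normal and 3Ws. Lipg, Prnp, Il1r2 and Kit had 2Ws levels near or below normal, and Nos2 rests on 1 read in the normal library.

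Interferon-stimulated genes were lower at 3Ws as a list. Of 67 kept, 60 had a ratio below 0, 21 were at least 2-fold lower against 5.45% of all genes, and 2 were at least 2-fold higher. Their median was -0.70. Without the members shared with lists of other blood cells, 19 of 65 were lower and the median was -0.69.

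The Ifit genes, whose proteins bind viral RNA, had 5 of 6 at least 2-fold lower, and Ifit2 had the lowest ratio of the list, -2.76. Ifit2 was at 69.4 FPKM in the normal library, 15.2 FPKM at 2Ws and 8.17 FPKM at 3Ws, which was 7.49-fold higher in the normal library by reads, with an interval of 6.85 to 8.20. Ifit3 was at 239, 81.5 and 49.5 FPKM and Ifit1 at 136, 49.3 and 37.4 FPKM. For these 3 genes the normal library stood apart and 2Ws lay nearer 3Ws. Ifit3 and Ifit3b are near-identical copies, so their division of reads is uncertain.

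Other antiviral genes followed the same order of libraries. Isg15, a ubiquitin-like modifier, was at 205, 78.9 and 66.5 FPKM; Rsad2, which encodes viperin, at 188, 90.1 and 56.7 FPKM; and Irf7, a transcription factor of interferon induction, at 152, 72.3 and 52.8 FPKM. All 8 kept genes of the Ifi200 cluster on chromosome 1, which encode DNA-binding HIN domain proteins, were at least 2-fold lower, from Ifi204 at -1.02 to Ifi209 at -1.81. Oas genes, by contrast, had 1 of 7 past 2-fold and a median of -0.31. The receptor chains Ifnar1 and Ifnar2 had ratios of 0.15 and -0.07.

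The Ifitm genes, which encode membrane proteins that hinder viral fusion, went the other way. Ifitm1 was at 602, 740 and 1570 FPKM in the normal, 2Ws and 3Ws libraries and Ifitm6 at 408, 395 and 984 FPKM. These were the 2 interferon-stimulated genes at least 2-fold higher, with centred folds of 2.96 and 2.74 by reads. Ifitm2 had a ratio of 0.62 and Ifitm3 one of -0.16.

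**Figure D5:**
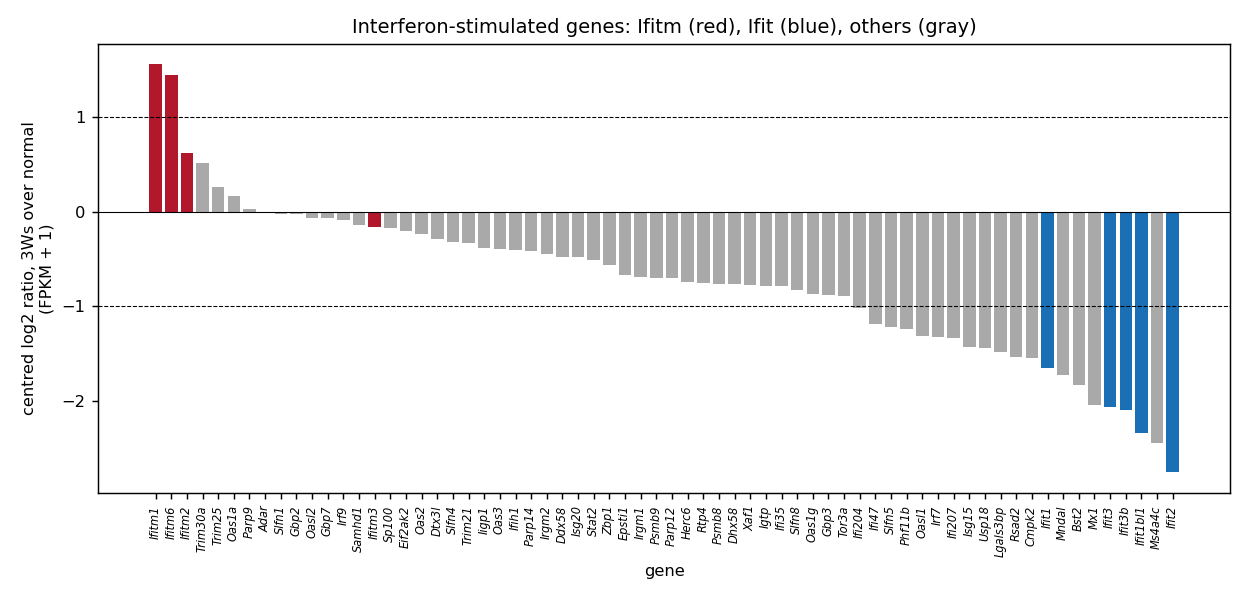
Bars are centred log2 ratios of 3Ws over normal for interferon-stimulated genes, ordered by ratio, with dashed lines at 2-fold. Ifitm1 and Ifitm6 lie above 1, and 5 Ifit genes lie at -1.66 or below.

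Monocytes, macrophages and dendritic cells also express interferon-stimulated genes, and their lists were lower at 3Ws as well. The 34 monocyte and macrophage genes summed to 6602 FPKM in the normal library, 6227 FPKM at 2Ws and 2722 FPKM at 3Ws, with none at 0 in the normal or 3Ws library, and the 24 dendritic cell genes summed to 149, 118 and 54.2 FPKM. Lyz2 alone gave 3742, 3787 and 1301 FPKM of the first of these sums, and the other 33 genes summed to 2860, 2440 and 1421 FPKM. Of the dendritic cell sums, Itgax gave 57.2, 56.1 and 35.0 FPKM and Bst2 gave 27.2, 15.3 and 5.97 FPKM. Some members of the monocyte and macrophage list were already lower at 2Ws. One was Ms4a4c, which is on the interferon-stimulated list as well, at 28.2, 16.2 and 3.71 FPKM. Their part in the lower interferon-stimulated genes at 3Ws was not tested.

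Promoters of the interferon list were searched for a known element. The interferon-stimulated response element is bound by transcription factors that interferon activates and was searched on both strands as GAAANNGAAA in RefSeq promoters of build GRCm38.p6, each running from 250 bases before to 50 bases after a start. It occurred in 3.99% of the 27025 genes of the promoter table and in 210 of 4294 kept genes with a promoter (4.89%). It occurred in 11 of 18 interferon-stimulated genes that were at least 2-fold lower and had a promoter in the table, and in 18 of 37 of the other interferon-stimulated genes. Neither Ifitm1 nor Ifitm6 held it. The sequences of 4 lower genes that hold the element and of the 2 higher Ifitm genes are shown from 5′ to 3′ in the direction of the gene, with matches in capitals. They lie at chr19:34640639-34640938 and chr19:34583279-34583578 on the plus strand, chr4:156200769-156201068 and chr12:26456403-26456702 on the minus strand, chr7:140967826-140968125 on the plus strand and chr7:141016843-141017142 on the minus strand.
Ifit1: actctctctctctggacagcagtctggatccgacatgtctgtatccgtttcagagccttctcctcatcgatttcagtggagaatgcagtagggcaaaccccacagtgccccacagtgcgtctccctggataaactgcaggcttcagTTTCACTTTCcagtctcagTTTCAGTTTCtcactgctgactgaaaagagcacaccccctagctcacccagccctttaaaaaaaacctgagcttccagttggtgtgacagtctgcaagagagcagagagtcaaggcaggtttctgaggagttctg
Ifit3: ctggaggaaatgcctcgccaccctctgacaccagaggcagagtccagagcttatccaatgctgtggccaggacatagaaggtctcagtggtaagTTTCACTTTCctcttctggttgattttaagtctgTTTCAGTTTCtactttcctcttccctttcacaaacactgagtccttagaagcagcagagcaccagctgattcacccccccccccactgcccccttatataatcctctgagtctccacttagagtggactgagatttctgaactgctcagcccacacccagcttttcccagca
Isg15: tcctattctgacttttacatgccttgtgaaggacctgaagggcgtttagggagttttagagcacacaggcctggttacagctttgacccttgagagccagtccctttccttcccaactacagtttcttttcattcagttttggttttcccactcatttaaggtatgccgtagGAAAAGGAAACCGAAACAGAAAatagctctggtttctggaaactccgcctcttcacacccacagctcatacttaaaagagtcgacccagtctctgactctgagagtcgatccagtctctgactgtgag
Rsad2: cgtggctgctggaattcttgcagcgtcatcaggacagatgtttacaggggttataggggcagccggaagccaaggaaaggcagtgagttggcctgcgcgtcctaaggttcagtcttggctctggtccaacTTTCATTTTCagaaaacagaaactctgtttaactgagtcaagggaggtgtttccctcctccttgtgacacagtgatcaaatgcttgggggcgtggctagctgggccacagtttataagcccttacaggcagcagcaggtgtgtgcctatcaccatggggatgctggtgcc
Ifitm1: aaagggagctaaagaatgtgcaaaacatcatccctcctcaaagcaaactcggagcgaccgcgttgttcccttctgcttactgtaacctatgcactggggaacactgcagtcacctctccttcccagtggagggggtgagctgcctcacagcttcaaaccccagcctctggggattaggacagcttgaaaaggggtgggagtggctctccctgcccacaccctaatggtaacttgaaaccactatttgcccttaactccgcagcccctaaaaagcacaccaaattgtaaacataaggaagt
Ifitm6: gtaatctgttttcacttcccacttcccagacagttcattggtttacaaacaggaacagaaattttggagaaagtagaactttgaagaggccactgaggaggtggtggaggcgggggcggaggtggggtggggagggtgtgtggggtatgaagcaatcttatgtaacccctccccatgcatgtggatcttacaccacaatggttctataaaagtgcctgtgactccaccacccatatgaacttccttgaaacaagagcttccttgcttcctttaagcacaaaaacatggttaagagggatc

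Matches in capitals numbered 2 in Ifit1, 2 in Ifit3, 3 overlapping ones in Isg15 and 1 in Rsad2. A match is a description of letters and not a bound site. Among higher genes, 5 of 128 with a promoter held the element (3.91%), and among lower genes outside the interferon list 15 of 202 did (7.43%). The shorter STAT dimer motif TTCNNNGAA, read the same on either strand, occurred in 7.81% of higher genes, 7.73% of lower genes and 7.94% of all kept genes. Of the interferon-stimulated genes with a promoter, 14 of 55 held it (25.5%). These were 2 of the 18 that were at least 2-fold lower and 12 of the 37 others.

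Glucocorticoid response genes were mostly higher. Of 13 kept, 11 had ratios above 0, 2 were at least 2-fold higher and the median was 0.59. Fkbp5, a co-chaperone of the glucocorticoid receptor and its classic target, was at 8.01 FPKM in the normal library, 9.71 FPKM at 2Ws and 45.9 FPKM at 3Ws. Pik3ip1, an inhibitor of PI3K, was at 3.39, 4.55 and 20.9 FPKM. In both genes 3Ws stood high alone. Per1 and Sgk1 had ratios of 0.95 and 0.59, and Cd163, a macrophage scavenger receptor, was the lower gene with -1.48.

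Glycolysis and hypoxia genes had 21 of 25 above 0 and a median of 0.43. The glucose transporter Slc2a1 was at 29.0, 23.4 and 62.6 FPKM and the prolyl hydroxylase Egln3, a target of HIF, at 12.8, 12.4 and 28.0 FPKM, and these alone passed 2-fold. Hif1a had a ratio of 0.98, and Gapdh and Pkm had 0.49 and 0.58. Hk2 went the other way at -0.77.

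Ribosomal protein genes were lower. Of 71 kept, 70 had ratios below 0, 17 were at least 2-fold lower and none was at least 2-fold higher, with a median of -0.76. Rps18 was at 35.5, 34.9 and 9.33 FPKM, and Rplp1, an abundant acidic stalk protein of the ribosome, at 350, 380 and 176 FPKM. The whole list summed to 6492 FPKM in the normal library, 6746 FPKM at 2Ws and 3587 FPKM at 3Ws, so that 3Ws alone stood low. Ribosomal protein transcripts are short, and with centring within 5 bins of exon length their median was -0.60. Respiratory chain and proteasome genes had medians of -0.27 and -0.29, with 1 of 60 and 0 of 32 genes at least 2-fold lower.

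Lipid genes held the largest ratio of all. Lipg, endothelial lipase, was at 1.49 FPKM in the normal library, 1.12 FPKM at 2Ws and 46.8 FPKM at 3Ws, a ratio of 4.44. Among 15 genes of lipid uptake and storage, Fabp5 was the other at least 2-fold higher, while the scavenger receptor Cd36, Msr1 and lipoprotein lipase, Lpl, were lower with ratios from -1.18 to -1.05. Ggt1, the glutathione-cleaving gamma-glutamyltransferase, was at 1.03, 2.76 and 18.9 FPKM.

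Several of the largest ratios belonged to genes on no list. Prnp, the prion protein, was at 1.11, 0.799 and 23.0 FPKM in the normal, 2Ws and 3Ws libraries, a fold of 23.5 by reads with an interval of 17.4 to 32.5. Crispld2, a secreted lipopolysaccharide-binding protein, was at 15.3, 20.1 and 111 FPKM. The transcription factor Snai1 was at 1.18, 2.199 and 11.9 FPKM and Ambp, the precursor of alpha-1-microglobulin and bikunin, at 0.860, 1.07 and 8.77 FPKM. Each was highest at 3Ws. Among lower genes on no list, Selenow, a small selenoprotein, was at 28.5, 22.5 and 4.30 FPKM, and Ednrb, an endothelin receptor, at 26.1, 26.1 and 4.61 FPKM.

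Lars2, the mitochondrial leucyl-tRNA synthetase, was at 34.1 FPKM in the normal library and at 6.25 and 4.86 FPKM at 2Ws and 3Ws. CT010467.1, annotated as rRNA and outside the rule, had the same order, at 506, 81.1 and 52.6 FPKM. The part of leftover rRNA in the value of Lars2 was not tested.

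Genes of other blood cells had a median ratio below 0 in 7 of 9 lists with at least 4 genes kept. In a bulk preparation, fewer cells of a type and less RNA in each cell cannot be told apart. B cell genes had 13 of 15 at least 2-fold lower, of 30 listed, and a median of -1.60. Most of the 15, such as Ms4a1 and Ly6d, reached 5 FPKM only in the normal library, so the rule itself leans them downward. The median of the list was -1.28 without the filter on low values and -1.98 with at least 5 FPKM in both libraries. Cd79a, a chain of the B cell receptor, was at 68.2 FPKM in the normal library, 94.2 FPKM at 2Ws and 13.3 FPKM at 3Ws. The B cell list summed to 1104, 1428 and 460 FPKM. Cd24a, which is on the eosinophil list too, gave 239, 284 and 242 FPKM of these sums. Ighm, an immunoglobulin gene outside the rule, gave 302, 364 and 74.1 FPKM. As a sum, B cell genes were thus highest at 2Ws and lowest at 3Ws, which did not hold for Cd24a.

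All 9 kept MHC class II genes were at least 2-fold lower, between -2.07 and -1.52. The invariant chain Cd74 was at 530, 417 and 110 FPKM. Of 30 monocyte and macrophage genes, 18 were lower and none higher: the complement gene C1qb was at 158, 114 and 40.8 FPKM and Ccr2, the chemokine receptor of inflammatory monocytes, at 29.2, 17.5 and 6.29 FPKM. Csf1r, the growth factor receptor of the lineage, was at 149, 130 and 104 FPKM with a ratio of -0.33. Resident macrophage genes had 11 of 16 lower, with Timd4, a receptor for dying cells, at 39.4, 28.1 and 5.61 FPKM and Retnla at 110, 42.9 and 16.5 FPKM.

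Dendritic cell genes had 5 of 6 lower, of 24 listed, with a median of -1.70. Among the lower ones, Cd209a, Mgl2 and Irf4 reached 5 FPKM only in the normal library. Without the filter on low values, the median of the list was -0.56. Cd209a, a lectin of monocyte-derived dendritic cells, had the lowest ratio of all genes kept, at 21.5, 9.85 and 1.48 FPKM, 12.8-fold higher in the normal library by reads with an interval of 9.30 to 18.1. Platelet genes had 7 of 8 lower, of 24 listed, the chemokine Pf4 being at 71.4, 66.8 and 11.1 FPKM. Tubb1, Itgb3, Ctla2a and Nrgn reached 5 FPKM only in the normal library, so the rule itself leans them downward. Without the filter, the median of the platelet list was -0.81 against -1.54. The platelet receptor gene Gp1ba was under the 5 FPKM rule and alike, at 3.31, 3.87 and 3.06 FPKM. Eosinophil genes had 3 of 6 lower, and their granule genes Epx and Prg2 stayed under 2 FPKM in each library.

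Hemoglobin genes went the other way. The 4 erythroid genes kept, all hemoglobins, were at least 2-fold higher. Hbb-bs was at 9.62 FPKM in the normal library, 2.68 FPKM at 2Ws and 43.6 FPKM at 3Ws. Hba-a1, Hba-a2 and Hbb-bt passed the filter through 3Ws alone, so the rule itself leans them upward. Erythroid genes below the rule went either way. Alas2 was at 0.168, 0.176 and 0.877 FPKM in the normal, 2Ws and 3Ws libraries, and Tfrc at 2.59, 2.63 and 2.23 FPKM. Klf1 and Slc4a1 were under 0.1 FPKM in all 3 libraries. Without the filter on low values, the median of the erythroid list was 0.22 against 2.22. Hba-a1 and Hba-a2 are near-identical copies whose shares of reads are uncertain. Kit, the stem cell factor receptor of progenitors and mast cells, was at 0.725, 0.841 and 7.08 FPKM. It too passed the filter through 3Ws alone. Cd93, the other progenitor gene kept, had a ratio of -0.58, and the 13 progenitor genes summed to 12.6, 13.4 and 12.0 FPKM. Without the filter on low values, the median of the basophil and mast cell list was -0.50 against 0.61.

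T cell genes were near the floor, with 1 of 27 kept. Their directions were mixed. Cd3e was at 0.297 FPKM in the normal library and 0.158 FPKM at 3Ws, whereas Cd3g was at 0.424 and 0.537 FPKM and Cd8b1 at 0.195 and 0.987 FPKM. Of the NK cell list, Ccl5 and Gzma were kept, with ratios of 1.06 and 0.68. Both reached 5 FPKM only at 3Ws, so the rule itself leans them upward. NK cell genes below the rule went either way. Klrd1 was at 3.06 FPKM in the normal library and 1.65 FPKM at 3Ws, and Gzmb at 0.936 and 2.27 FPKM. No melanoma gene was kept; Tyrp1 was at 0.0414 FPKM at 3Ws and listed at 0 in the others, and Sox10 was listed at 0 in all 3 libraries. Pmel was at 1.33, 1.53 and 2.66 FPKM and Mitf, which is not limited to melanocytes, at 3.89, 3.96 and 2.52 FPKM.

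Some lower genes also lay near each other on chromosomes. Runs of at least 3 such genes less than 100 kb apart numbered 10 among the 294 lower genes and 3 among the 166 higher genes. Other kept genes could lie between the members of a run. Lower runs included 7 MHC class II genes of chromosome 17, in a span of 11 kept genes, and the 3 C1q genes of chromosome 4. They also included 4 Ms4a genes of chromosome 19, and Gimap4, Gimap6 and Gimap3 with Tmem176b and Tmem176a on chromosome 6. Higher runs were the Wfdc genes above, Stfa2l1, Gm5483 and Stfa1 on chromosome 16, and Plin5, Lrg1 and Sema6b on chromosome 17. Coordinates followed GENCODE M21 on GRCm38.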

How the data were processed

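Deposited values were FPKM per Ensembl gene, which the authors made after aligning reads with HISAT2 2.1.0 to GRCm38, with Bowtie2 2.2.3 also named in the processing notes; the sources used here give no annotation release or strand setting. The value column of the normal library carries another number than its sample title, and no other normal library was given. Genes were named and placed through GENCODE M21. Fragments were recovered from the steps of FPKM and summed exon lengths, and came out whole within 0.001 in both libraries for 4390 of 5392 genes (81.4%). Gene sums were 105.8% to 105.9% of the recovered depth, so intervals are approximate.

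Ratios were log2 with a pseudocount of 1, which understates the ratio of low genes, centred as described above; folds by reads use the same centre without a pseudocount. The rule for naming took the 15 highest and 15 lowest ratios with at least 50 reads in 1 library, for each list the 2 highest levels and 3 largest ratios, genes the study examined, and the 10 most abundant genes of each library; other named genes were chosen after their values were seen. The genes kept, the lists and the tests were chosen with earlier results of these data known. Alternatives changed the pseudocount, centring, filter, fold line and lists. Differential expression values of the study were not used. Some items are not reported here. Analysis used Python 3.11.15 with scipy 1.17.1, pandas 2.3.3, matplotlib 3.10.9 and numpy 2.4.6, and was tested on simulated data.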

Additional observations from a re-analysis of the deposited data

How the results depend on the processing

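No paired analysis was possible because each condition has 1 library. The counts of higher and lower genes over all genes (166 and 294) were 93 and 130 with a pseudocount of 5, 499 and 702 at 1.5-fold, and 30 and 20 at 4-fold. Lower genes numbered 115 with at least 5 FPKM in both libraries and 107 with at least 20 FPKM in 1 library. Neutrophil-list genes (36 higher and 30 lower) numbered 69 and 57 at 1.5-fold and 10 and 5 at 4-fold. Genes of other blood cells (6 higher and 60 lower) numbered 1 and 26 with at least 5 FPKM in both libraries, 2 and 30 with at least 20 FPKM in 1 library, and 10 lower at 4-fold. These filters keep fewer genes, the fold lines move the threshold, and a larger pseudocount shrinks ratios. The other alternatives left each of these counts within 1.5 times: pseudocounts of 0.1 and 0.5, no centring, centring on Actb or on neutrophil-list genes, no filter or 1 FPKM, at least 50 reads, and an exact binomial test on reads, which compares these libraries and not the conditions. So did 2 alternatives chosen after seeing the data, centring within 5 bins of exon length and genes with whole reads. Over 35 lists, 455 of 481 alternative medians stayed within the range set by their list's own genes and no median past 2-fold reversed. In lists with few kept genes that range ran from the lowest to the highest member, so staying within it says little. The dendritic cell median, for example, was -0.56 without a filter against -1.70. Under some alternative, 9 lists with medians nearer 0 changed sign, among them redox, adhesion, BCL2 family and chemoattractant receptor genes. The largest such changes were in basophil and mast cell genes, 0.61 to -0.72 at 1 FPKM, and sterol and fatty acid genes, -0.39 to 0.36 at 20 FPKM. With 1 library a side, depth bounds counting error alone.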

Other observations

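Outside the rule, 160 X-linked genes reached 5 FPKM in 1 of the 2 compared libraries, of which 5 were at least 2-fold higher at 3Ws and 4 lower. Il13ra1, which pairs with the interleukin-4 receptor chain Il4ra, was at 124 FPKM in the normal library, 120 FPKM at 2Ws and 266 FPKM at 3Ws, beside Il4ra at 52.9, 54.7 and 136 FPKM. Tlr13, the sensor of bacterial ribosomal RNA in mice, was at 129, 135 and 259 FPKM. Cybb, the catalytic subunit of the phagocyte oxidase, was at 120, 97.6 and 51.8 FPKM, a ratio of -1.01, although no autosomal oxidase gene passed 2-fold. The macrophage complement receptor Vsig4 was at 24.2, 16.8 and 5.64 FPKM.

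Among genes that are not protein-coding, Gm19951 and Gm29264, both annotated as lincRNA, had 570 and 177 reads in the normal library and 4698 and 1358 reads at 3Ws, with ratios of 3.20 and 3.00. The immunoglobulin light chain constant gene Iglc2 was at 27.1, 44.4 and 5.26 FPKM, the order of libraries seen for Cd79a.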
